A study of Mus musculus with 8 samples.

Results

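The genes of oxidative phosphorylation were examined in RNA sequencing of mouse liver. They comprised all protein-coding genes of the mitochondrial chromosome (MT), together with nuclear protein-coding genes whose symbols begin with Nduf, Uqcr, Cox4 to Cox8 or Atp5, or read Sdha, Sdhb, Sdhc or Sdhd. This rule took 107 of the 54532 genes in the count table, 13 from the mitochondrial genome and 94 from the nucleus. The 107 entries carry 106 symbols, because Atp5o is listed under 2 identifiers. Mice with a floxed Matr3 gene, which encodes the RNA- and DNA-binding nuclear matrix protein matrin-3, had been crossed with mice that carry Cre under the albumin promoter. The resulting liver-specific knockout (LKO) mice lose matrin-3 in cells that use this promoter, chiefly hepatocytes, and the other cells of the liver keep the gene. The 4 groups were female floxed, female LKO, male floxed and male LKO, with 2 libraries in each. All mice ate chow and were taken at 16 weeks of age, and each library was made from the pooled livers of 2 mice. Strain background and the Cre status of the floxed mice are not given in the labels. With 2 pooled libraries a group, p-values measure the spread between pools of 2 mice.

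Oxidative phosphorylation couples the transfer of electrons along the inner mitochondrial membrane to the making of ATP. Complexes I to IV pass electrons from NADH and succinate to oxygen, complexes I, III and IV pump protons, and complex V, the ATP synthase, uses the proton gradient. All complexes except II combine subunits from both genomes: the mitochondrial genes, transcribed as long precursor RNAs from both strands of the circular genome, encode central membrane subunits, and nuclear genes supply the rest. Hepatocytes are rich in mitochondria and use this ATP for gluconeogenesis and urea synthesis, among other tasks.

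Total counts ran from 28048469 to 43383157 per library. Levels are given per 1000000 counts (CPM), with library sizes scaled by the trimmed mean of M values (TMM), and differences as log2 fold changes with their standard errors (SE). Matr3 had 59.3 and 56.5 CPM in female floxed, 32.9 and 31.5 in female LKO, 56.7 and 52.7 in male floxed, and 26.4 and 28.6 in male LKO livers. It fell by 0.85 on the log2 scale in females and by 0.99 in males (edgeR, adjusted p 0.0052 and 0.00228). Summed CPM of 8 hepatocyte markers, among them albumin, lay between 80947 and 119105. Marker lists for 12 cell types or neighbouring tissues were read beside the results. edgeR called markers of 4 of these lists in the mean over both sexes, where 1.75% of all genes were called. In LKO livers 4 of 11 stellate cell and mesenchymal markers (Col3a1, Col1a2, Col1a1, Lrat) fell, and so did 1 of 8 hepatocyte markers, Apoa1. Of 12 pericentral markers Slc1a2 and Oat rose, and of 12 periportal markers G6pc. The median log2 fold change was -0.421 over the stellate list and -0.085 over the hepatocyte list. It was 0.274 over the pericentral and 0.009 over the periportal list. In bulk liver, fewer cells of a type and less RNA per cell cannot be told apart.

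Within the mitochondrial genome, the level per length split into 2 blocks. Outside the stretch from mt-Co2 to mt-Nd4l, 7 genes ranged from 2028 CPM per kilobase for mt-Nd5 to 12044 for mt-Co1, with a median of 5024. The 6 genes of that stretch ranged from 22.2 for mt-Atp8 to 439 for mt-Atp6, with a median of 182. The ratio of the 2 medians was 27.6. The block runs parallel to a nuclear copy of mitochondrial DNA on chromosome 1 (GRCm38, bases 24611535 to 24616197), where the annotation places the pseudogenes Gm28439, Gm10222, Gm28438, Gm28437, Gm10925, Gm28661 and Gm29216. The alignment of GENCODE M21 transcripts covered mt-Co2, mt-Atp6, mt-Co3, mt-Nd3 and mt-Nd4l over all but 1 to 3 of their bases. It covered 876 of the 1378 bases of mt-Nd4 and 483 of the 1545 bases of mt-Co1. mt-Atp8 has no annotated copy. The 233 bases between Gm10925 and Gm28661 carry no gene in the annotation, and whether they hold a copy of mt-Atp8 was not checked.

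Over their aligned bases the copies are identical to the mitochondrial genes except for 1 base each in mt-Nd3 and mt-Co1. These windows show how little sequence separates the 2 places a read could come from. Capitals mark the differing base, which is T3C in mt-Nd3 and A1066T in mt-Co1, counted from the start of the mitochondrial gene.
mt-Nd3: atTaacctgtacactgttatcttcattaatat
Gm28438: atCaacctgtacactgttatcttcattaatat
mt-Co1: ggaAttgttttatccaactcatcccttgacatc
Gm29216: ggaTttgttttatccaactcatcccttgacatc

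The copies held many counts of their own. Gm28661 had 160.5 to 277 CPM across the 8 libraries, and mt-Co2 had 49.8 to 67.6% of the counts summed over the 2. The mitochondrial gene held 44.6 to 53.1% of the summed counts for mt-Co3, 56.0 to 61.5% for mt-Nd3, 34.3 to 64.7% for mt-Atp6 and 23.9 to 46.9% for mt-Nd4l. For mt-Co1 and mt-Nd4, which reach beyond the bases copied on chromosome 1, the share was 98.7 to 99.1% and 96.7 to 97.9%. How reads that match both places were treated is unknown here. The values of the 5 genes with copies in that stretch are therefore uncertain, and so is the ratio between the blocks. With the length restricted to bases outside the chromosome 1 copies for mt-Co1 and mt-Nd4, the ratio of the block medians was 28.2. A further copy of mt-Co1, Gm13340 on chromosome 2, aligned over all 1545 bases at 97.61% identity and was not part of this restriction. It held 2024 counts in all 8 libraries together, against 5077556 in mt-Co1.

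Gene overlaps add to this uncertainty. mt-Atp8 shares its last 43 bases with the start of mt-Atp6, and mt-Nd4l shares its last 7 with mt-Nd4. The shared bases stand in capitals, followed by the next bases of the downstream gene, to show how much of these short genes is common to both.
mt-Atp8 end: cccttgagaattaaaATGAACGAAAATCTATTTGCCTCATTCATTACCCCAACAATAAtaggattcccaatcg
mt-Nd4l end: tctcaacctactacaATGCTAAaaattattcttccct
mt-Nd5 and mt-Nd6 overlap by 14 bases on opposite strands. The library kit marked strand, but whether counting used it is not given, so reads of mt-Nd6 and of RNA antisense to it cannot be told apart.

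**Figure D1:**
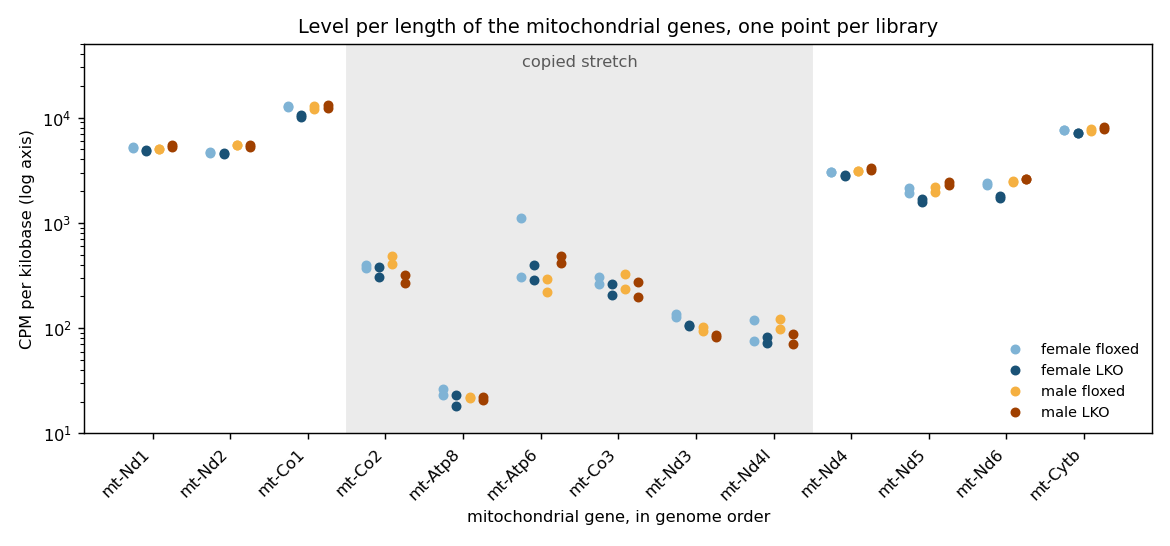
Level per length of the 13 mitochondrial genes in genome order, in CPM per kilobase on a log axis, with 1 point per library coloured by group. The 6 genes of the copied stretch (grey) lie between 22.2 and 439 CPM per kilobase on average, and the other 7 between 2028 and 12044.

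Nuclear members lay far lower than the 7 mitochondrial genes outside the copied stretch. Of the 94, 88 passed the filter on low counts, and their median level was 65.8 CPM per kilobase. Length here is that of all annotated exons merged, which lowers the value of genes with long minor isoforms. The highest member of complex I was Ndufa1, a small membrane-arm subunit, at 140 ± 10.2 CPM per kilobase (SD over the 8 libraries). The highest of complex II was the membrane anchor Sdhd at 149 ± 14.5, of complex III Uqcr11 at 221 ± 8.11, of complex IV Cox8a at 333 ± 26.4, and of complex V the catalytic-head subunit Atp5a1 at 294 ± 17.6. Among the 8 complex I assembly factors, which help build the complex without staying in it, the highest was Ndufaf1 at 19.0 ± 1.13. Cox6a1 at 311 ± 22.8 lay within this spread of Cox8a, but below it in every library. Complex I subunits had a median of 51.5, complex II 104, complex III 136, complex IV 124, complex V 70.8 and the assembly factors 7.42 CPM per kilobase.

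Nuclear members varied little across the libraries. For the 83 of them with a mean of at least 10 CPM, the median coefficient of variation over all 8 libraries was 6.02%. For the 8077 genes tested with at least that mean it was 9.64%. Levels of the members and of these genes were not matched beyond this floor. Ndufs8, an iron-sulfur core subunit of complex I, varied least at 1.89%. Ndufa12, an accessory subunit, varied most at 24.95%, with libraries between 20.9 and 42.7 CPM. In Ndufa12, 28.7% of the counts summed over the gene and its near-identical copies lay in the copies. Of the 94 nuclear members, 17 had such copies (at least 150 aligned bases at 97% identity or more). In 6 of those the copies held at least 10% of the summed counts: Ndufa12, Atp5g1, Atp5l, Ndufab1, Cox7c and the unexpressed Atp5o entry.

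Subunits that exist as tissue isoforms were present almost entirely in their general form. Cox7a1, the heart and muscle form, made up 0.926 to 4.46% of the per-length sum of Cox7a1 and Cox7a2. Ndufa4l2, a hypoxia-induced relative of Ndufa4, made up 0.666 to 1.55% of its pair. Cox6b2, the testis form, reached at most 0.297% against Cox6b1. Cox4i2, Cox8b and Cox6a2 had 47, 17 and 13 counts in all 8 libraries together, and Cox7b2 and Cox8c had 0, and these were not tested. The c-ring of ATP synthase is made from 3 genes whose mature proteins are the same. Atp5g3 had 64.5 to 71.5% of their summed CPM, Atp5g1 14.9 to 21.4% and Atp5g2 13.3 to 14.1%, with Atp5g1 subject to its copies. Unlike the values of the isoform pairs, these shares are not divided by length. They therefore do not rank the 3 genes by number of messages.

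In female livers, LKO libraries had a smaller share of counts from mitochondrial genes. The share was 4.95 and 4.83% in female floxed, 4.31 and 4.28% in female LKO, 4.73 and 4.87% in male floxed, and 4.85 and 5.02% in male LKO libraries. Both female LKO libraries lay below the other 6. The log2 ratio of LKO to floxed means was -0.19 in females and 0.04 in males. The nuclear members together held between 1.16 and 1.24% of counts in every library. These shares are sums over the members and were not tested. Of the mitochondrial counts, mt-Co1 alone made up 40.9 and 40.4% in female floxed and 38.2 and 37.5% in female LKO libraries. In male libraries it made up 38.6 and 40.2% in floxed and 38.6 and 39.6% in LKO. The summed share thus leans on this gene.

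No mitochondrial gene passed an adjusted p of 0.05 for LKO against floxed in females (edgeR quasi-likelihood test, 0 of 13, with 0.584% of the 16613 genes tested called). At an unadjusted p under 0.05, 5 were lower and 0 higher, where 7.1% of all genes were lower and 7% higher. DESeq2 and limma-voom each called 1 member, mt-Nd6 (adjusted p 0.00373 and 0.0462). All 13 fold changes lay below 0. In 7 genes (mt-Nd1, mt-Nd3, mt-Nd4, mt-Nd5, mt-Nd6, mt-Cytb and mt-Co1) both LKO libraries lay below both floxed libraries, where 25.3% of all genes did so. The median of the 13 was -0.27, against 0.00 for all genes.

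mt-Nd6 (MT, 13552 to 14070, minus strand), the complex I subunit encoded on the opposite strand to the other 12, had 1247 and 1181 CPM in female floxed and 943 and 903 in female LKO livers. In males it had 1259 and 1284 CPM in floxed and 1363 and 1363 in LKO livers. The female LKO libraries were the lowest of the 8 and did not overlap the rest. Strand use in counting is unknown, so these counts may include RNA antisense to mt-Nd6, from the strand that encodes mt-Nd5. The values of mt-Nd6 and mt-Nd5 are therefore not secure as separate results. On the log2 scale LKO differed from floxed by -0.40 in females (SE 0.08, edgeR adjusted p 0.0682) and, in males, by 0.10 (SE 0.08, adjusted p 0.648). Over 18 alternative settings the adjusted p in females ran from 0.00142 to 0.54.

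mt-Nd5 (MT, 11742 to 13565), a proton-pumping subunit of complex I, had 3914 and 3511 CPM in female floxed, 3066 and 2882 in female LKO, 3609 and 4039 in male floxed, and 4145 and 4424 in male LKO livers. The female LKO pair was again the lowest, with a log2 fold change of -0.32 in females (SE 0.09, edgeR adjusted p 0.177). mt-Co1 (MT, 5328 to 6872), the catalytic subunit of cytochrome c oxidase, had 19817 and 19417 CPM in female floxed and 16275 and 15605 in female LKO livers. Its male libraries lay between 18447 and 20432 CPM, so the female LKO libraries were the lowest of the 8 here as well. The log2 fold change in females was -0.30 (SE 0.08, edgeR adjusted p 0.129). Without either male floxed library, mt-Co1 (adjusted p 0.0298 and 0.0283) and mt-Nd6 (0.0253 and 0.0233) passed, at nearly the same fold changes.

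The other mitochondrial genes outside the copied stretch had smaller fold changes in females. The log2 fold changes were -0.10 for mt-Nd1, -0.02 for mt-Nd2, -0.10 for mt-Nd4 and -0.08 for the complex III subunit mt-Cytb, with SE of 0.07 each. Ratios of counts within a library, which do not depend on library size, were chosen after these values were seen. mt-Nd6 had 0.144 and 0.135 counts per count of mt-Cytb in female floxed, 0.115 and 0.109 in female LKO, 0.141 and 0.150 in male floxed, and 0.152 and 0.147 in male LKO livers. The female LKO ratios lay below the other 6. The ratio of mt-Nd1 to mt-Cytb ran from 0.544 to 0.582 and overlapped between floxed and LKO in both sexes. That of mt-Nd5 to its neighbour mt-Nd6 was 3.14 and 2.97 in female floxed and 3.25 and 3.19 in female LKO livers, without overlap, and 2.87 and 3.15 against 3.04 and 3.25 in males, with overlap.

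Within the copied stretch, mt-Atp6, a membrane subunit of ATP synthase, had 209 and 753 CPM in female floxed, 271 and 194 in female LKO, 150 and 197 in male floxed, and 332 and 283 in male LKO livers. The second female floxed library stands apart from the other 7. The log2 fold change of mt-Atp6 in females was -1.05 (SE 0.46, edgeR adjusted p 0.354), and it was 0.16 (adjusted p 0.885) without that library. mt-Nd3 (MT, 9459 to 9806), a small complex I subunit, had 47.1 and 44.6 CPM in female floxed, 37.5 and 36.1 in female LKO, 32.6 and 35.8 in male floxed, and 28.8 and 30.02 in male LKO livers. In both sexes its LKO libraries lay below its floxed libraries.

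In males, none of the 13 was called either (edgeR, 0 of 13, with 0.205% of all genes called). At an unadjusted p under 0.05, 2 were lower and 0 higher, where 6.16 and 5.68% of all genes were. DESeq2 called 1, mt-Co2, and limma-voom 0. The median log2 fold change was 0.04, and 6 of the 7 genes outside the copied stretch lay above 0. mt-Co2, an electron-accepting subunit of complex IV, had 335 and 278 CPM in male floxed and 182 and 217 in male LKO livers, without overlap. Its log2 fold change was -0.62 (SE 0.14, edgeR adjusted p 0.152), and -0.41 (adjusted p 0.279) when the counts of Gm28661 were added to it. It was -0.75 (adjusted p 0.036) without the second male floxed library.

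In the mean over both sexes, mt-Nd3 came nearest to the threshold (log2 fold change -0.27, SE 0.06, edgeR adjusted p 0.0548). None of the 13 passed, with 1.75% of all genes called. At an unadjusted p under 0.05, 5 were lower and 0 higher, where 9.36 and 8.82% of all genes were. DESeq2 called 1, mt-Co2, and limma-voom 0. mt-Nd3 passed under a robust prior (adjusted p 0.0422), under a filter of 1 CPM in 2 libraries (0.0431) and without either male floxed library (0.0369 and 0.0456). With the counts of its chromosome 1 copy added, it stood at -0.25 (adjusted p 0.0984).

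The difference between the LKO effects in females and males was itself tested. No member passed (edgeR, 0 of 101, with 0.00602% of all genes called), and limma-voom called 0. At an unadjusted p under 0.05, 4 mitochondrial genes were lower in females than in males and 1 nuclear gene, Ndufaf8, was higher, where 3.55% of all genes were lower and 3.61% higher. The difference was -0.50 for mt-Nd6 (SE 0.11, edgeR adjusted p 0.392), which DESeq2 called at 0.0429. It was -0.48 for mt-Nd5 (SE 0.13, adjusted p 0.511) and -0.34 for mt-Co1 (SE 0.11, adjusted p 0.595).

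**Figure D2:**
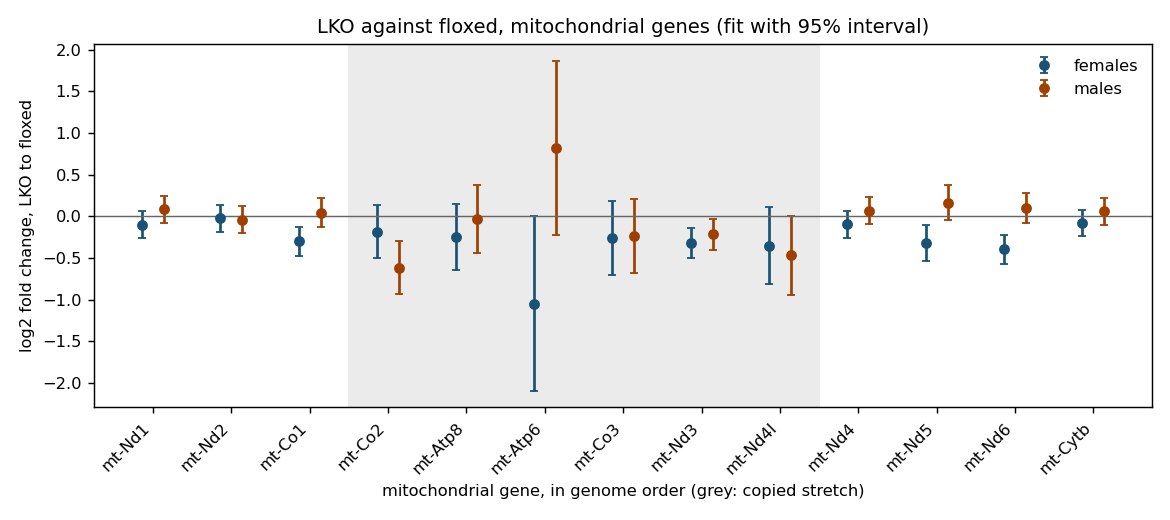
log2 fold change of LKO against floxed for each mitochondrial gene in females (blue) and males (brown), with 95% intervals from the edgeR fit on all 8 libraries. mt-Nd6, mt-Nd5 and mt-Co1 lie at -0.40, -0.32 and -0.30 in females and at 0.10, 0.16 and 0.04 in males, and the widest intervals are those of mt-Atp6 in the copied stretch (grey).

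No nuclear member passed the threshold for the knockout. Of the 88 tested, 0 were called by edgeR in females, in males and in the mean over both sexes. The shares of all genes called were 0.584, 0.205 and 1.75%. At an unadjusted p under 0.05, 3 were higher and 1 lower in females, 5 higher and 2 lower in males, and 6 higher and 2 lower in the mean. Among all genes 7 and 7.1% were in females, 5.68 and 6.16% in males, and 8.82 and 9.36% in the mean. DESeq2 called 0, 0 and 2 nuclear members, the 2 being Cox7a1 and Sdhd, and limma-voom called 0 in each. The median log2 fold change was 0.02 in females, 0.05 in males and 0.04 in the mean. In the mean, the 95% interval of 84 of the 88 lay within 1.5-fold in either direction.

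Most fold changes were small and lay above 0, in 61 of 88 nuclear members in the mean over both sexes. In males, 43 nuclear members had both LKO libraries above both floxed libraries and 7 had the reverse, where 19.9 and 20.1% of all genes did. In females the counts were 23 and 11, against 25.3% each way. In both sexes at once, 11 members were higher without overlap (Cox7a1, Sdhd, Ndufb3, Ndufa11, Cox7a2l, Uqcrq, Ndufa7, Cox6a1, Ndufs6, Atp5h and Ndufb5) and 0 lower, against 7.9 and 7.8% of all genes. These counts are not independent, because the members share libraries and scaling. By complex, the median in the mean over both sexes was 0.05 for complex I, 0.06 for complex II, 0.00 for complex III, 0.06 for complex IV, 0.01 for complex V and -0.05 for the assembly factors. Among the assembly factors, Ndufaf2 had 12.2 and 11.6 CPM in male floxed and 8.83 and 9.98 in male LKO livers, which is -0.34 on the log2 scale (SE 0.13, edgeR adjusted p 0.354). Uqcrq of complex III and Atp5g2 of complex V had the smallest p of their complexes in the mean, at 0.13 and 0.08 (adjusted p 0.301 and 0.492).

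**Figure D3:**
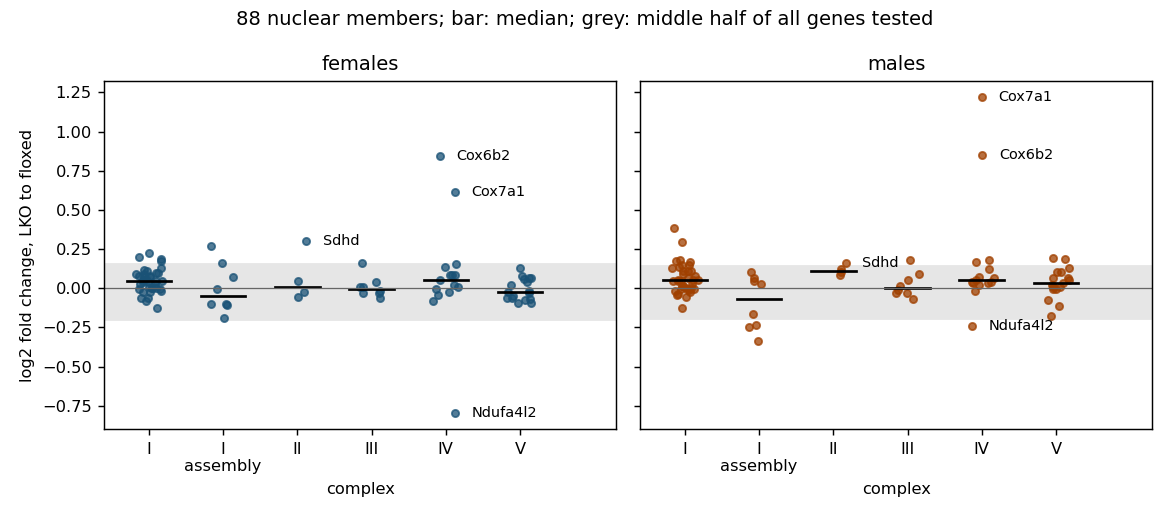
log2 fold change of LKO against floxed for the 88 nuclear members tested, by complex, in females (left) and males (right). Points are genes, bars are medians of each complex and the grey band runs from the lower to the upper quartile of all genes tested; most members lie inside it, and the rarely expressed Cox7a1 and Cox6b2 lie far above it in both sexes, with Ndufa4l2 far below it in females.

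Sdhd (chromosome 9, 50596357 to 50603812, minus strand), a membrane anchor of succinate dehydrogenase, had the smallest p of complex II. Its level was 161 and 174 CPM in female floxed, 212 and 201 in female LKO, 173 and 167 in male floxed, and 189 and 190 in male LKO livers. In each sex the LKO libraries lay above the floxed ones. Its log2 fold changes were 0.30 in females (SE 0.08, edgeR adjusted p 0.152), 0.16 in males (SE 0.08, adjusted p 0.485) and 0.23 in the mean (SE 0.06, adjusted p 0.0916). DESeq2 gave an adjusted p of 0.0401 for the mean. Ndufb3, an accessory subunit of complex I, had 43.9 and 53.4 CPM in male floxed and 57.5 and 62.0 in male LKO livers, and 40.5 and 44.3 against 46.1 and 49.3 in females. Its log2 fold change in the mean was 0.23 (SE 0.07, edgeR adjusted p 0.15), and 0.31 (adjusted p 0.0268) without the second male floxed library.

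Cox7a1 (chromosome 7, 30184144 to 30186078) had 1.57 and 1.93 CPM in female floxed, 3.03 and 2.29 in female LKO, 0.691 and 1.38 in male floxed, and 2.39 and 2.41 in male LKO livers. LKO libraries were the higher ones in both sexes, from 542 counts in all. In the mean over both sexes LKO was higher by 0.92 on the log2 scale (SE 0.23, edgeR adjusted p 0.0876), and 1.21 (adjusted p 0.0154) without the second male floxed library. Cox7a1 is expressed in muscle and brown fat. Of 10 muscle markers, 3 were at 0 in all libraries and the list summed to between 5.16 and 6.81 CPM, most of it from Des. Of the 2 muscle markers that could be tested, Mylpf, a myosin light chain, had a log2 fold change of 0.88 and Des, which other cells also express, of -0.30 in the mean over both sexes (edgeR adjusted p 0.103 and 0.194). The 8 adipocyte markers summed to 3.15 to 5.997 CPM in females, and to 20.8 and 7.19 in male floxed and 19.0 and 18.9 in male LKO livers. The first male floxed library had the highest adipocyte sum and the lowest Cox7a1. Ucp1 was at 0 throughout. In males Cidea rose (log2 fold change 4.33, SE 0.60, edgeR adjusted p 0.0386), which neither DESeq2 nor limma-voom called, and Fabp4 stood at -0.55 (adjusted p 0.524). Cfd alone had 5.77 and 0.671 CPM in male floxed and 12.0 and 10.2 in male LKO livers, the largest part of the male LKO sums. Adipoq, Plin1 and Retn were highest in the first male floxed library and had at most 0.217 CPM in male LKO livers. The part of other tissues in the Cox7a1 values was not tested.

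Ndufa4l2 (chromosome 10, 127514967 to 127517154) had 2.80 and 2.44 CPM in female floxed, 1.62 and 1.37 in female LKO, 2.55 and 2.43 in male floxed, and 1.77 and 2.45 in male LKO livers. The female groups did not overlap, and the male groups did. The log2 fold change was -0.80 in females (SE 0.24, edgeR adjusted p 0.185) and -0.52 in the mean (SE 0.17, adjusted p 0.157). The 11 stellate cell and mesenchymal markers summed to 393 and 367 CPM in female floxed and 286 and 295 in female LKO livers. They summed to 373 and 300 CPM in male floxed and 235 and 250 in male LKO livers. The part of these cells in the values of Ndufa4l2 was not tested.

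**Figure D4:**
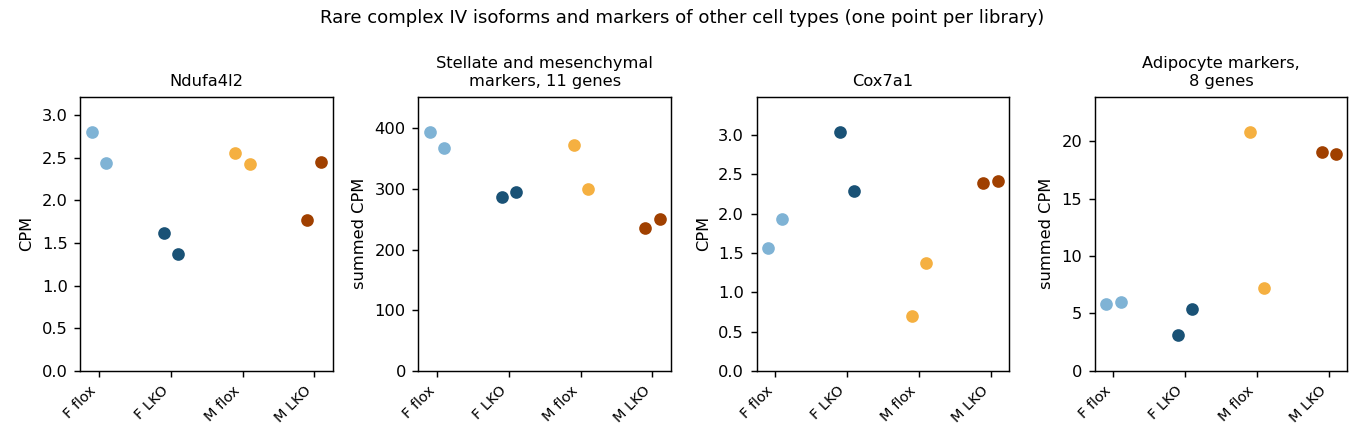
CPM of Ndufa4l2 and Cox7a1 in each library (1 point each) beside the summed CPM of 11 stellate and mesenchymal markers and of 8 adipocyte markers. Ndufa4l2 lies lowest in female LKO livers, at 1.62 and 1.37 CPM, while the stellate sum is 286 and 295 there. Cox7a1 is 2.39 and 2.41 CPM in male LKO livers. The adipocyte sum there is 19.0 and 18.9, of which Cfd alone gives 12.0 and 10.2. Cox7a1 is 0.691 CPM in the male floxed library with the highest adipocyte sum, 20.8.

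Other mitochondrial pathways were read as lists. In the mean over both sexes, edgeR called 1 of 32 assembly factors of complexes II to V, 1 of 34 genes of mitochondrial DNA and RNA handling, and 2 of 77 mitochondrial ribosomal proteins, all higher in LKO livers, with 1.75% of all genes called. DESeq2 called 1, 1 and 2 in these lists, and limma-voom 0, 1 and 1, so that it did not call Coa6. Coa6, which helps deliver copper to complex IV, had 17.2 and 15.5 CPM in female floxed, 19.9 and 18.4 in female LKO, 20.3 and 21.1 in male floxed, and 28.2 and 27.1 in male LKO livers. It rose by 0.32 on the log2 scale (SE 0.07, edgeR adjusted p 0.0483). Hsd17b10, a subunit of the mitochondrial RNase P that cuts the precursor RNAs, had 86.8 and 90.8, then 102 and 97.8 CPM in floxed and LKO females, and 117 and 140, then 209 and 189 CPM in floxed and LKO males. It rose by 0.40 (SE 0.07, edgeR adjusted p 0.0355). Mrpl45 and Mrpl49, proteins of the large mitochondrial ribosomal subunit, rose by 0.33 (SE 0.07, adjusted p 0.0427) and 0.28 (SE 0.06, adjusted p 0.0423).

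The remaining 13 lists had no call by edgeR in the mean over both sexes. Their counts at an unadjusted p under 0.05 stand against 8.82% of all genes higher and 9.36% lower. Of 18 regulators of mitochondrial biogenesis, 6 were higher and 1 lower, and the other tools called 0. Ppargc1a, which is on this list, was not among those 6 (log2 fold change 0.13, edgeR adjusted p 0.797). Of 24 genes of the tricarboxylic acid cycle and pyruvate dehydrogenase, 4 were higher and 0 lower. Of 26 genes of protein import and cristae, 7 were higher and 0 lower, and of 18 of fatty acid oxidation, 1 each way. Of 23 chaperone, protease and stress genes, 2 were higher and 1 lower, and DESeq2 called 2 and limma-voom 1. Of 16 hypoxia-responsive genes, 1 was higher and 1 lower, and DESeq2 called 1. The cytochrome c list (12 genes) had 0 higher and 1 lower, the other complex I assembly factors (11) 2 and 0, and the aminoacyl-tRNA synthetases (20) 2 and 2. Ubiquinone synthesis (13) had 1 and 1, nucleotide transport (9) 1 and 1, antioxidant defence (11) 3 and 0, and cytosolic ribosomal proteins (80) 3 and 4. In these 7 lists DESeq2 and limma-voom called 0, as they did for the cycle, import and fatty acid lists.

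More members passed the threshold between the sexes than between the genotypes, and so did more of all genes. In the mean over both genotypes, edgeR called 8 of the 101 members, where 15.8% of all genes were called (7.69% higher and 8.14% lower in females). Of the 88 nuclear members 0 were higher and 4 lower in females, and of the 13 mitochondrial members 1 was higher and 3 lower. The 4 nuclear genes Ndufaf4, Cox7a2, Ndufb3 and Ndufa10 and the mitochondrial genes mt-Nd6, mt-Nd5 and mt-Nd2 were lower in females, and mt-Nd3 was higher. Within floxed livers 3 members passed (mt-Nd3, Ndufaf4 and Cox7a2, with 6.51% of all genes called), and within LKO livers 4 passed (mt-Nd6, mt-Nd5, mt-Co1 and mt-Nd3, with 8.49% called). In floxed livers mt-Nd6 differed by -0.07 (edgeR adjusted p 0.697), and the change of the sex difference with genotype is the same contrast as the difference between LKO effects given above. Of the 88 nuclear members, 71 lay below 0 in the mean over genotypes, with a median of -0.06 against 0.01 for all genes. All 4 female libraries lay below all 4 male libraries in 15 nuclear members and above them in 0, against 8.92 and 8.94% of all genes.

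Ndufaf4 (chromosome 4, 24898083 to 24905001), an assembly factor of complex I, had 24.98 and 25.1 CPM in female floxed, 29.2 and 26.7 in female LKO, 33.4 and 42.9 in male floxed, and 35.4 and 42.3 in male LKO livers. Every female library lay below every male library. The log2 difference of female minus male was -0.54 (SE 0.09, edgeR adjusted p 0.00438). Cox7a2 (chromosome 9, 79755361 to 79759878, minus strand), the general form of a small complex IV subunit, had 101 and 105 CPM in female floxed, 115 and 104 in female LKO, 131 and 131 in male floxed, and 132 and 137 in male LKO livers. Its difference was -0.33 (SE 0.06, edgeR adjusted p 0.00567), again with no overlap. Both calls, and those of mt-Nd3 and mt-Nd6, were kept under all 17 alternatives.

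Ndufb3 and Ndufa10, accessory subunits of complex I, were less secure. Ndufb3 had a difference of -0.26 (SE 0.07, edgeR adjusted p 0.0442), and its female LKO libraries overlapped its male floxed libraries. Ndufa10 had 133 and 133 CPM in female floxed, 135 and 128 in female LKO, 148 and 153 in male floxed, and 152 and 147 in male LKO livers. Its difference was -0.19 (SE 0.05, edgeR adjusted p 0.0499). Each lost its call in 7 of the 8 fits that left out a library, all but the one without the first male floxed library, with adjusted p up to 0.163 and 0.166. Ndufa10 also lost it with DESeq2 (adjusted p 0.0595), without a filter on low counts (0.0891) and with the replicate block (0.0705).

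Among the mitochondrial genes, mt-Nd2 (MT, 3914 to 4951), a proton-pumping complex I subunit, had 4897 and 4745 CPM in female floxed, 4722 and 4765 in female LKO, 5713 and 5733 in male floxed, and 5501 and 5643 in male LKO livers. Its female libraries all lay below its male libraries (difference -0.24, SE 0.05, edgeR adjusted p 0.0117). The count ratio of mt-Nd2 to its neighbour mt-Nd1 was 0.971, 0.956, 0.995 and 1.04 in the female libraries and 1.18, 1.18, 1.06 and 1.11 in the male ones, again with no overlap. The call of mt-Nd2 was lost without the first or second female floxed library (adjusted p 0.0569 and 0.0877) or the second male LKO library (0.0553).

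The difference of mt-Nd6 was -0.31 (SE 0.06, edgeR adjusted p 0.00502) and that of mt-Nd5 -0.29 (SE 0.07, adjusted p 0.0193) in the mean over genotypes. Within LKO livers they were -0.56 (edgeR adjusted p 0.00272) and -0.53 (adjusted p 0.00984). With strand use in counting unknown, the calls of these neighbours may not be separate results. The call of mt-Nd5 in the mean was lost without the second female floxed (adjusted p 0.112), second female LKO (0.0568) or second male LKO library (0.0858). mt-Nd3 was the only mitochondrial gene called higher in females, by 0.37 (SE 0.06, edgeR adjusted p 0.00246), and by 0.34 (adjusted p 0.00763) with the counts of its chromosome 1 copy added. This is 1 of the genes that share nearly all their sequence with that copy, as the windows of mt-Nd3 and Gm28438 show. Within LKO livers mt-Nd3 did not pass with the copy added (0.28, adjusted p 0.102). Kupffer cell markers moved with sex too: 6 of 9 were higher in females in the mean over genotypes, against 7.69% of all genes, and their part in these values was not tested.

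**Figure D5:**
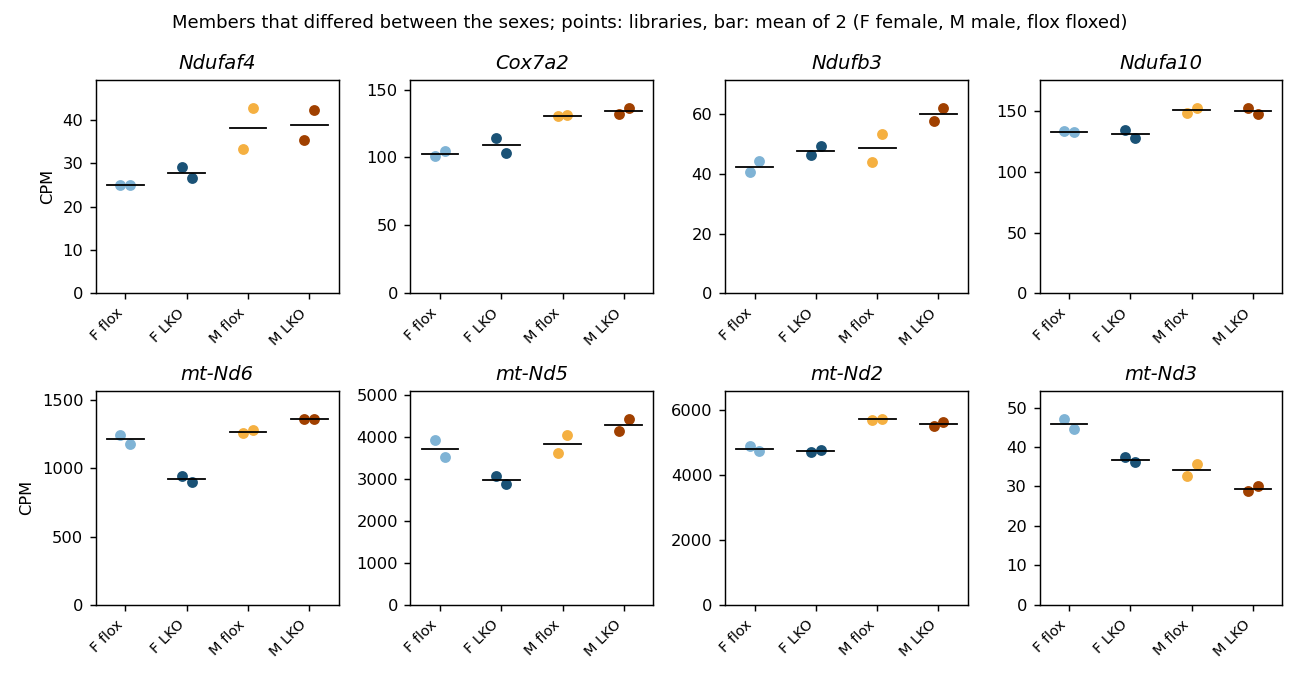
CPM per library of the 8 members that differed between the sexes in the mean over genotypes, with 2 points and their mean for each group and every axis starting at 0. Ndufaf4, Cox7a2, Ndufa10, mt-Nd6 and mt-Nd2 have every female library below every male library, mt-Nd3 has the reverse, and Ndufb3 and mt-Nd5 overlap.

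Promoters were read for the nuclear members as a whole, and the 15 that lay lower in every female library were not counted apart. Of the 94, 75 had a promoter in the RefSeq table (GRCm38.p6, 250 bases before to 50 after the start), giving 74 different sequences. Exact matches were counted on both strands. The motif of nuclear respiratory factor 1 (NRF1) stood in 24.3% of the members and 4.78% of all 27025 promoters. The YY1 motif AANATGGCG stood in 12.2% against 2.51%, the ETS motif CCGGAAGT in 6.76% against 4%, and the estrogen-related receptor motif TNAAGGTCA in 4.05% against 1.26%. The box CCAAT stood in 44.6% against 37.9%, and in the members 0 pairs of matches to different motifs shared bases. The 3 promoters printed here were chosen after values were seen: those of Ndufaf4 and Cox7a2, which were called between the sexes, and that of Sdhd, which was not called by edgeR for genotype. Capitals mark the matches.
Sdhd: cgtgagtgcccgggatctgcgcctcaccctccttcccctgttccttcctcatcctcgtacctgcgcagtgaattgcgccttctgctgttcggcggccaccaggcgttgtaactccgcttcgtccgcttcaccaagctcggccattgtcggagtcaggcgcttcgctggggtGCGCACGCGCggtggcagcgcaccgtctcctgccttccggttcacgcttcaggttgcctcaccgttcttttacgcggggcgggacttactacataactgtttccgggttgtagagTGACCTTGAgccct
Ndufaf4: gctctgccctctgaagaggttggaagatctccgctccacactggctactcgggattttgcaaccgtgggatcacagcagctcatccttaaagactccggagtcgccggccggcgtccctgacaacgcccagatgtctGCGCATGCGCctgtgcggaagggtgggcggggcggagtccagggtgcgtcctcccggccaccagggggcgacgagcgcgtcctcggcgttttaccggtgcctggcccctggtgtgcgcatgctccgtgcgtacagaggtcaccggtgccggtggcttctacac
Cox7a2: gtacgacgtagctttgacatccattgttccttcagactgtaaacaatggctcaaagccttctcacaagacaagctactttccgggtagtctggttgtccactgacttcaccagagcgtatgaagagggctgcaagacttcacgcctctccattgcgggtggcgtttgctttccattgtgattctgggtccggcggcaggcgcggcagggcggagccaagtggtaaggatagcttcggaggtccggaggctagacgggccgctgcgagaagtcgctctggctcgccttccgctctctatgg
The Sdhd promoter (chr9:50603800-50604099, minus strand) has a match to the NRF1 motif and to the estrogen-related receptor motif, both on the opposite strand. That of Ndufaf4 (chr4:24897833-24898132, plus strand) has a match to the NRF1 motif. That of Cox7a2 (chr9:79759804-79760103, minus strand) has no match to any of the 5 in this window. A match is a description of the letters, and no binding was measured.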

How the data were processed

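Gene counts for 8 libraries were the values the authors deposited. The submitters' processing notes name the aligner HISAT2 (version 2.0.5), the genome build mm10 and, for counting, featureCounts (version 1.5.0-p3). Whether counting used strand, which annotation it used and how multiply mapped reads were treated is unknown here. Per the labels' protocols, messenger RNA was taken on poly-T beads and made into directional libraries. How far this selection sets the level of mitochondrial messages, most but not all of which carry short tails, was not tested.

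From the counts, edgeR 4.0.16 (R 4.3.3) was run with TMM scaling, its default filter on low counts and quasi-likelihood tests on 16613 genes. All 8 libraries and 4 groups entered 1 fit. The 7 contrasts were adjusted by Benjamini-Hochberg over all genes, with a threshold of 0.05. limma 3.58.1 (voom), DESeq2 1.42.0, other filters and scalings, a replicate block and leaving out each library were alternatives. Adding the counts of the chromosome 1 copies was chosen after seeing the data. The tests were run on simulated data, with changes planted in genes drawn at random from all those tested. Of genes changed 1.5-fold, 11% were recovered in females, 27% in males and 57% in the mean over both sexes. Of genes changed 2-fold, 61, 56 and 69% were recovered. These rates do not describe the members, whose fold changes had smaller SE. In females the median SE was 0.085 for nuclear and 0.079 for mitochondrial members, and 0.165 for all genes.

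Named genes were Matr3, all mitochondrial members, members past the threshold in any contrast, isoform pairs, the highest member per length and the member of smallest p in each complex, and called genes of the other lists. Others were named after their values were seen. Members and lists were chosen with earlier results of these data known. Same-numbered libraries did not deviate together (correlations -0.102 to 0.0573), and the labels do not say that the numbers pair them. The main fit used no pairing. A pairing with a small effect may not show in these correlations. The 3 lines without a gene were left out.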

Additional observations from a re-analysis of the deposited data

How the results depend on the processing

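With 2 libraries a group, many small changes would be missed, and copied or overlapping mitochondrial genes remain uncertain at any depth. Against 0 members called by edgeR, DESeq2 called 1 in females, 1 in males, 3 in the mean over both sexes and 1 for the difference between the sexes' LKO effects. limma-voom and a fit on only the libraries compared each called 1 in females. A filter of 1 CPM in 2 libraries and a robust prior each called 1 in the mean. Without a filter, 5, 5, 6 and 4 members were called in these contrasts, and 5 in floxed and 8 in LKO livers between the sexes, against 3 and 4. A fit on only the floxed libraries called 0 between the sexes. The cause of these shifts was not tested.

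Leaving out 1 library gave 0 to 2 calls in females, 0 to 2 in males, 0 to 4 in the mean and 0 for the difference between LKO effects. Between the sexes it gave 0 to 3 in floxed, 1 to 8 in LKO livers and 4 to 9 in the mean over genotypes. The log2 fold change of mt-Atp6 in females ran from -1.70 to 0.16 and reversed to 0.155 without the second female floxed library. In floxed livers the call of mt-Nd3 was lost without the first or second female library (adjusted p 0.149 and 0.0767), and that of Ndufaf4 without these (0.175 and 0.166) or the second male floxed library (0.0841). Cox7a2 lost its call there under 8 of 18 alternatives. In LKO livers mt-Nd6 was called under all 18, mt-Nd5 was lost without the second female (0.0635) or second male LKO library (0.0908), and mt-Co1 and mt-Nd3 were each lost under 10. With the replicate block, 0 members were called in each of the LKO contrasts, and 2, 3 and 7 between the sexes in floxed, LKO and both. The log2 ratio of the mitochondrial share ran from -0.205 to -0.171 in females and from 0.017 to 0.065 in males when 1 library was left out. Without division by length, the ratio of the mitochondrial block medians was 40.94. In the last 200 bases of the promoter window CCAAT stood in 32.4% of members.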
